A study of Rattus norvegicus with 24 samples.

Results

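Integrin and laminin subunits were followed in the left kidneys of 24 male PKD/Mhm (Cy/+) rats. All genes of the deposited count tables whose rat symbol names an integrin alpha subunit, an integrin beta subunit or a laminin chain were taken, provided that at least 10 counts were present in at least 6 samples. Of 17334 genes in the tables, 27 subunits that met these requirements are described. They comprised 12 alpha subunits (Itga1, Itga4, Itga5, Itga6, Itga7, Itga8, Itga10, Itga11, Itgad, Itgae, Itgal and Itgam), 8 beta subunits (Itgb1 to Itgb8) and 7 laminin chains (Lama1, Lama4, Lama5, Lamb2, Lamb3, Lamc1 and Lamc3). The other subunits of both families, among them Itga3, Itgav, Lama2, Lama3 and Lamb1, were not analysed here.

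All animals, controls included, were heterozygous for Cy, a spontaneous missense change in Anks6 after which kidney cysts form. The animals were 8 months old. The 6 control animals (Ctrl) were untreated. The CoCM group of 6 received medium conditioned by ABCB5+ stromal cells of human skin that had been cultured together with macrophages derived from THP-1 cells (a human monocytic leukaemia line) under IFN-γ and LPS stimulation. A further 6 animals received the human ABCB5+ cells by the intraperitoneal route (i.p. ABCB5+) and another 6 by the intravenous route (i.v. ABCB5+), monthly over 6 months. Whole kidney RNA was read, so that fewer cells of a type and less RNA per cell cannot be told apart. The kidneys were frozen before perfusion, with blood in them. Control animals were numbered 1 to 24 and treated animals 26 to 43, so that the order of the animals and the treatment cannot be told apart.

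Integrins are receptors made of an alpha and a beta subunit that tie a cell to the matrix around it and carry signals in both directions. Laminins are trimers of an alpha, a beta and a gamma chain that form the scaffold of basement membranes, including those of kidney tubules and glomeruli. In cystic kidneys the tubular basement membrane is known to thicken, and laminins and their integrin receptors have been linked to the growth of cysts.

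Kidneys of 4 animals stood apart from the rest. On the first principal component of all genes tested, which held 56.3% of the variance, CoCM animal 39 lay at 97.4, i.p. animal 38 at 80.8 and i.v. animals 36 and 37 at 87.1 and 86.3, whereas the other 20 kidneys lay between -53.0 and 11.5. Depth was 9304630 to 14125457 counts per sample. I.p. animal 38 and CoCM animal 39 had the fewest counts of all, with 9304630 and 9759947, and the 4 kidneys had the fewest genes with a count, 13557 to 13797, compared with 13904 to 14184 in the other 20. Proximal tubule markers summed to 3638 to 5814 TPM in those 4 kidneys and to 987.3 to 3728 TPM in the other 20. Leukocyte markers summed to 94.12 to 212.3 TPM, compared with 641 to 1267 TPM elsewhere, and injured tubule markers to 564.7 to 739.7 TPM, compared with 2134 to 3678 TPM. Mesenchymal markers summed to 474.6 to 608 TPM, compared with 788.9 to 2979 TPM. No marker of these lists was at 0 in all animals, and Krt20 was at 0 in at least 1 of them. Podocyte, tubule and collecting duct markers of kidney were detected in all groups. The counts and main values are therefore given with these 4 kidneys and without them.

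The upstream sequences of 4 members are shown because they carry the main results: Lamc3 and Lamc1 had the smallest p-values against Ctrl, and Lamb3 and Itgam were among the most variable members between animals. The sequences are those of RefSeq (GRCr8), in which 19 of the 27 members were found, and cover the 250 bases before the annotated start, written 5′ to 3′ on the strand of the gene. Lamc3 was taken from chr3:35562739-35562988 on the plus strand, Lamc1 from chr13:68051987-68052236 on the minus strand, Lamb3 from chr13:107362303-107362552 on the plus strand and Itgam from chr1:192089342-192089591 on the plus strand. Capitals mark matches on either strand to 3 short motifs: TGANTCA, bound by AP-1 factors, GGAATG, bound by TEAD factors, and GAGGAA, bound by the myeloid factor PU.1.
Lamc3: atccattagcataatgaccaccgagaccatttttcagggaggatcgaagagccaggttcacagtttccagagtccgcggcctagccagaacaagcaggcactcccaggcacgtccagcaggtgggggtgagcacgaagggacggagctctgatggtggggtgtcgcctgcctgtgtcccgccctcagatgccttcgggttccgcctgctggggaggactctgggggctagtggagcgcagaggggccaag
Lamc1: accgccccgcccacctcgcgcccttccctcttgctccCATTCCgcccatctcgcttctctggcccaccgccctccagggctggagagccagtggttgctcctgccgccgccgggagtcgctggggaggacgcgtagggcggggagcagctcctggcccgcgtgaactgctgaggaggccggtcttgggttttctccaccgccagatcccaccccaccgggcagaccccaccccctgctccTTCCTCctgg
Lamb3: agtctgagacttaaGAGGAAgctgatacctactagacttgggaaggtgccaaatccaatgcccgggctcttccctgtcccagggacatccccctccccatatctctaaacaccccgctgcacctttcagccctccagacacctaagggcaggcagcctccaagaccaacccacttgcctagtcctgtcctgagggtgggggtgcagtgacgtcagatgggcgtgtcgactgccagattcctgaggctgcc
Itgam: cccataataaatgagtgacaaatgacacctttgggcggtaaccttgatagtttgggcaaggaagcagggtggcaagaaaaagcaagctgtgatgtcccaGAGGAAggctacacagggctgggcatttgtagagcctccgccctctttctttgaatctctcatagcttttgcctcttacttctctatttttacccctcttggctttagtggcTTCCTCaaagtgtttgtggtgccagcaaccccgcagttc
The Lamc3 window held none of these letters, the Lamc1 window held a GGAATG match 213 bases and a GAGGAA match 10 bases before the start, and the Itgam window held GAGGAA matches at 151 and 39 bases. Among the 19 member promoters, GAGGAA was present in 9 and GGAATG in 4, compared with 23.34% and 12.06% of 33469 rat promoters of the same length. TGANTCA was in 0 of the 19, compared with 6.34% of all promoters. GGAATG and GAGGAA can overlap on a strand, and a match describes the letters only.

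Levels were first compared between subunits in Ctrl, in TPM, which is scaled by transcript length. Itgb1, the common partner of most matrix-binding alpha subunits, was the most abundant member with 293 ± 16.3 TPM (SD, n = 6). Itgb5, which pairs with Itgav to bind vitronectin, followed with 131 ± 16.8 TPM, and Itgb6, an epithelial partner of Itgav that activates latent TGF-beta, with 36.7 ± 10.7 TPM. The Ctrl ranges of Itgb1, Itgb5 and Itgb6 did not overlap with each other. The next beta subunits in order were Itgb2, Itgb4, Itgb7, Itgb8 and Itgb3, from 36.4 down to 1.87 TPM, and the ranges of neighbours in this order overlapped, that of Itgb6 and Itgb2 included. Itgb1 made up 48.97% to 58.13% of the summed beta subunit TPM in the 24 kidneys.

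Among the alpha subunits, Itga6, a laminin receptor of epithelia, was highest with 49.8 ± 8.76 TPM in Ctrl, and its range lay above that of every other alpha subunit. Itgal, the alpha chain of the lymphocyte integrin LFA-1, had 18.9 ± 4.54 TPM, and Itga1, a collagen receptor of mesenchymal and endothelial cells, had 15.4 ± 8.98 TPM. These and the following members down to Itga4 overlapped with their neighbours in the order Itga5, Itga7, Itga8, Itgae, Itgam, Itgad, Itga11 and Itga4. Itga10, a collagen receptor of cartilage, was lowest at 0.221 ± 0.0670 TPM and reached 10 counts in only 13 of the 24 samples. Itgad, Itgam and Itgal are related genes, and whether reads were divided between them was not examined.

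Among the laminins, the beta chain Lamb2, the chain of the glomerular basement membrane, was highest in Ctrl with 73.6 ± 23.8 TPM, above the range of Lamc1, the widespread gamma chain, with 33.8 ± 4.11 TPM. Lama5, the main alpha chain of mature kidney basement membranes, had 20.2 ± 5.98 TPM. Lamc3 overlapped with its neighbours in the order, at a mean of 18.4 TPM. Lama4, an alpha chain of vessel walls, had 9.96 TPM and lay above Lamb3 with 5.09 TPM, which overlapped with Lama1 at 3.30 TPM.

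**Figure D1:**
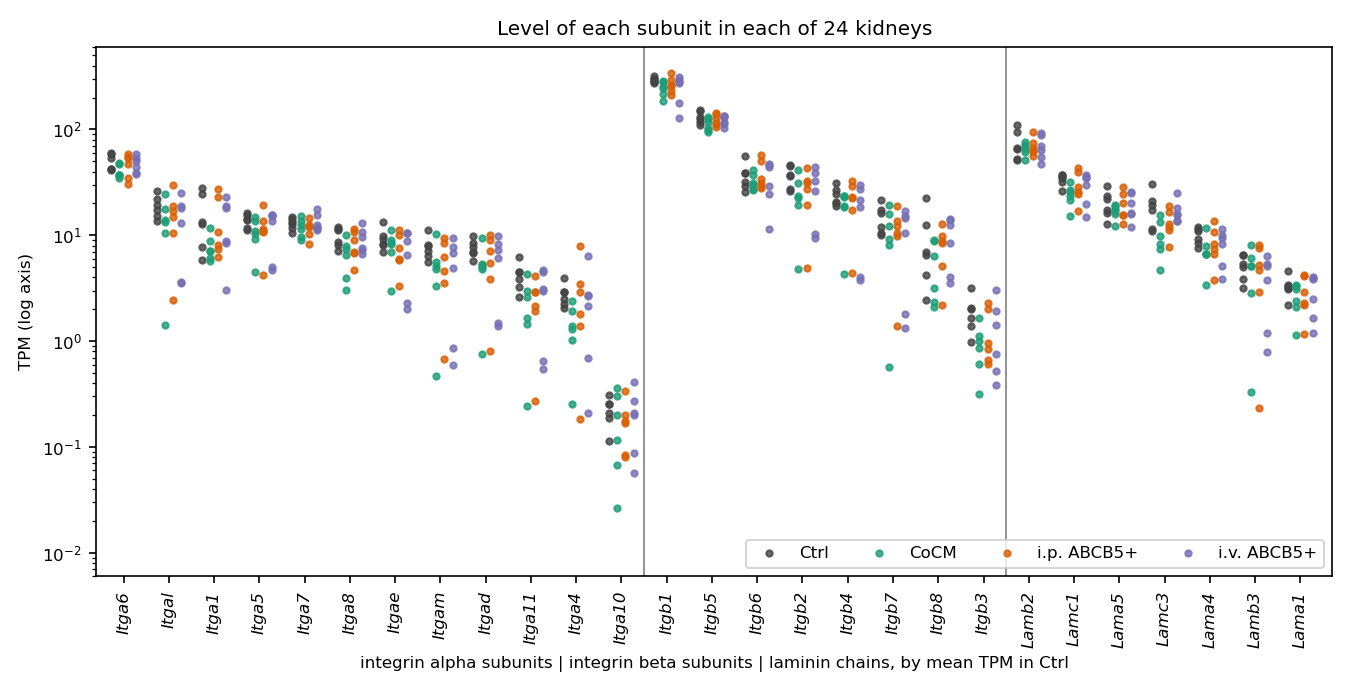
TPM (log axis) of the 27 subunits in each of 24 kidneys, ordered within alpha subunits, beta subunits and laminin chains by the Ctrl mean, with a point per kidney coloured by group. Itgb1 has the highest points and Itga10 the lowest, and Itgal, Itgam, Itgb2, Itgb4, Itgb7 and Lamb3 have low points in the treated groups that come from animals 36 to 39.

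CoCM was compared with Ctrl to ask whether the medium was accompanied by a difference in these subunits. Lamc3, Lamc1, Itga1 and Itgb3 were lower in CoCM at an unadjusted p-value under 0.05 (edgeR), and 0 of the 27 were higher. Against a background of 5.96% of all 12778 genes tested that were lower by this rule, and 11.9% in either direction, these were 4 of 27 members. After adjustment over all genes 0 of 27 passed 0.05 (background 0.00783%), and the same count was obtained with DESeq2 and every other setting tried. Groups did not separate completely for any member (0 of 27, background 1.38%). The direction was shared more widely than the calls, since all 27 log2 fold changes were below 0, with a median of -0.35, compared with 6569 of 12778 genes above 0 and a median of 0.01 over all genes. Without animals 36 to 39, 24 of 27 were below 0, and the median value was that of Itgb5, at -0.19. In that setting 7 passed the unadjusted threshold, all lower, compared with 9.69% of all genes lower and 16.9% in either direction.

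Lamc3, the gamma chain of a few specialised basement membranes, ranged from 49.3 to 147 CPM in Ctrl with a median of 90.1, and from 26.5 to 77.5 CPM in CoCM with a median of 46.3. It ranged from 45.8 to 82.0 CPM with i.p. ABCB5+ (median 63.0) and from 61.3 to 118 CPM with i.v. ABCB5+ (median 77.7). CoCM animals 26, 34, 35 and 39 thus fell below the lowest Ctrl kidney, and CoCM animals 27 and 40 lay inside the Ctrl range. The log2 fold change was -0.82 ± 0.26 (SE) in CoCM, with an adjusted p-value of 0.301 in edgeR, and between 0.0525 and 0.555 in the alternatives. Without animals 36 to 39 the log2 fold change was -0.69, with an adjusted p-value of 0.235. The log2 fold change against Ctrl was -0.44 ± 0.26 with i.p. ABCB5+ and -0.02 ± 0.26 with i.v. ABCB5+. Against the average of both cell groups, CoCM differed by -0.58 ± 0.23 (log2, edgeR, adjusted p-value 0.688). Lamc3 was the only member to pass the unadjusted threshold in that contrast (1 of 27, background 7.00%) and also the only member to do so over all 4 groups (1 of 27, background 4.71%). Neither call of Lamc3 was kept without animals 36 to 39. Its difference from the cells was then -0.46 (log2, edgeR, adjusted p-value 0.376), while Lamc1, Itga1 and Itga4 passed the unadjusted threshold there (3 of 27, compared with 13.9% of all genes) and Itga8 over all 4 groups (1 of 27, compared with 6.23%).

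Lamc1, which is present in most laminin trimers, ranged from 157 to 223 CPM in Ctrl (median 186) and from 101 to 187 CPM in CoCM (median 147). The 2 groups overlapped, with CoCM animals 26, 27, 34, 35 and 39 below the lowest Ctrl kidney and CoCM animal 40 inside the Ctrl range. The log2 fold change was -0.39 ± 0.16 (edgeR, adjusted p-value 0.380), and -0.32 without animals 36 to 39. In the alternatives the adjusted p-value was between 0.114 and 0.588. The ratio of Lamc3 to Lamc1, both gamma chains, in TPM had a median of 0.561 in Ctrl and 0.360 in CoCM, and the ranges, 0.310 to 0.942 in Ctrl and 0.310 to 0.523 in CoCM, overlapped. No test was made of this ratio.

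Itga1 ranged from 17.5 to 78.8 CPM in Ctrl (median 36.4) and from 16.7 to 35.4 CPM in CoCM (median 22.1). Ctrl animals 23 and 24 were high at 62.4 and 78.8 CPM, and leaving out animal 24 moved the log2 fold change from -0.85 ± 0.40 (edgeR, adjusted p-value 0.411) to -0.60. Itgb3, a subunit of platelets, endothelial cells and osteoclasts, was scarce, with 1.54 to 4.17 CPM in Ctrl (median 2.69) and 0.527 to 2.55 CPM in CoCM (median 1.45). The groups overlapped, and the log2 fold change was -0.89 ± 0.42 (edgeR, adjusted p-value 0.413). In the alternatives the adjusted p-values were between 0.245 and 0.601 for Itga1 and between 0.115 and 0.603 for Itgb3. Of 5 blood and platelet markers, all had log2 fold changes below 0 in all treated groups. The unadjusted threshold was passed by 0 in CoCM (background 11.9%), 1 with i.p. (1.77%) and 4 with i.v. ABCB5+ (5.78%). Ctrl animal 1 stood far above the other Ctrl kidneys for Hba-a1, with 3731 CPM against 45.3 to 804 CPM. Summed with Ppbp, their medians were 1972 TPM in Ctrl (range 299.4 to 1.71e+04), 1963 in CoCM, 1122 with i.p. and 932.1 with i.v. ABCB5+. The part of these markers was not tested. Single animals decided 3 of the 4 calls of members in CoCM. The unadjusted call of Itga1 was lost on leaving out any of CoCM animals 26, 27, 35, 39 and 40 and Ctrl animals 23 and 24, that of Itgb3 without any of CoCM animals 26, 27, 34 and 35 and Ctrl animals 1, 22 and 23, and that of Lamc1 without CoCM animal 39 or Ctrl animal 1 or 24. The call of Lamc3 was kept on leaving out each animal in turn. The count of 4 fell to 2 without any of CoCM animals 26, 27 and 35 and Ctrl animals 1, 23 and 24.

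Endothelial markers were also lower in CoCM. All 8 endothelial markers had a log2 fold change below 0 in CoCM, with a median of -0.39. The unadjusted threshold was passed by 4 of the 8, Cdh5, Flt1, Kdr and Tek (background 5.96% lower, 11.9% in either direction). The summed level of the 8 was 429.5 to 537.2 TPM in Ctrl and 224.6 to 492.7 TPM in CoCM. It was 368.6 to 544 TPM with i.p. and 368.6 to 540.9 TPM with i.v. ABCB5+. Cdh5, the cadherin of endothelial junctions, differed by -0.66 ± 0.25 (log2) and Tek, the angiopoietin receptor, by -0.44 ± 0.14, with adjusted p-values of 0.353 and 0.301 in edgeR. Other marker lists shifted in CoCM too. Mesenchymal markers had a median log2 fold change of -0.49, with 2 of 10 above 0 and 0 called. Leukocyte markers had a median of -0.22, with 1 of 10 above 0 and 0 called. Of 8 proximal tubule markers 2 were called, both lower, while all 7 collecting duct markers were above 0 and 1 was called. The part of any of these cell types in the difference was not tested.

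The most abundant members, Itgb1 and Itgb5, had within-group SDs of 0.193 and 0.169 on the log2 CPM scale. Itgb1 had medians of 750 CPM in Ctrl, 693 in CoCM, 708 with i.p. and 728 with i.v. ABCB5+, and its log2 fold changes against Ctrl were -0.16 ± 0.12, -0.10 ± 0.12 and -0.21 ± 0.12. The i.v. value was the smallest p-value among members in that contrast, and it was -0.05 without animals 36 to 39, since i.v. animals 36 and 37 were low at 547 and 450 CPM and the other i.v. kidneys lay between 722 and 766 CPM. Itgb5 had medians of 347, 303, 324 and 338 CPM in the same order of groups and differed from Ctrl by -0.12 ± 0.10, 0.00 ± 0.10 and -0.02 ± 0.10. Without animals 36 to 39 its CoCM value was -0.19 and passed the unadjusted threshold.

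Itgb6 had medians of 70.7 CPM in Ctrl, 65.9 in CoCM, 72.9 with i.p. and 71.4 with i.v. ABCB5+, with log2 fold changes of -0.06 ± 0.21, 0.12 ± 0.21 and -0.08 ± 0.21. Itga6 had medians of 208, 187, 217 and 223 CPM, and Itgal of 60.5, 44.4, 51.6 and 47.4 CPM. The Itga6 groups overlapped throughout and differed from Ctrl by -0.20 ± 0.12, -0.06 ± 0.12 and -0.00 ± 0.12. For Itgal the differences were -0.39 ± 0.49, -0.29 ± 0.49 and -0.46 ± 0.49, each smaller than its standard error. Its CoCM value was -0.16 without animals 36 to 39, and -0.15 without CoCM animal 39 alone.

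Lamb2 had medians of 271 CPM in Ctrl, 290 in CoCM, 285 with i.p. and 279 with i.v. ABCB5+, and log2 fold changes of -0.04, 0.00 and 0.00 (SE 0.13 each). Lama5 had medians of 163, 154, 161 and 164 CPM and log2 fold changes of -0.15, -0.00 and -0.00 (SE 0.15 each). Lamb2 and Lama5 therefore differed from Ctrl by no more than their standard errors, whereas the gamma chains Lamc1 and Lamc3 passed the unadjusted threshold in CoCM. Lama4, at -0.39 ± 0.24, and Lama1, the chain of early tubular basement membranes, at -0.26 ± 0.26, were not called in CoCM. Without CoCM animal 39 these values were -0.25 for Lama4 and -0.12 for Lama1.

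**Figure D2:**
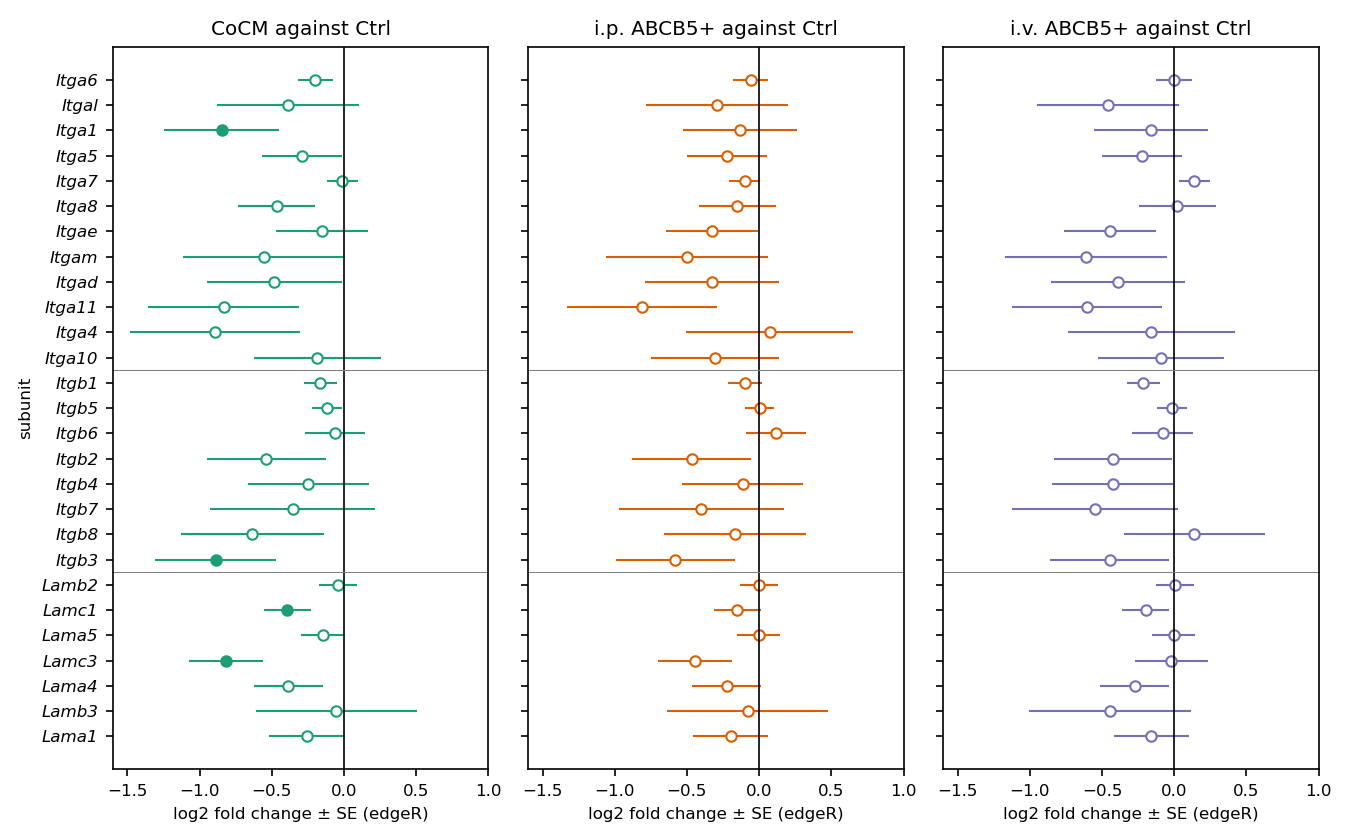
Log2 fold change with its SE (edgeR) of the 27 subunits in each treated group against the same 6 Ctrl kidneys, with filled points where the unadjusted p-value was under 0.05. All 27 points lie below 0 in CoCM and only Lamc3, Lamc1, Itga1 and Itgb3 are filled.

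The cells themselves were then compared with Ctrl. With i.p. ABCB5+, 0 of 27 members passed the unadjusted threshold (background 1.77%), 0 of 27 separated from Ctrl (background 0.0470%) and 23 of 27 log2 fold changes were below 0, with a median of -0.17. With i.v. ABCB5+, 0 of 27 passed (background 5.78%), 0 of 27 separated (background 0.110%) and 23 of 27 were below 0, with a median of -0.20. After adjustment 0 of 27 passed in either contrast, in edgeR, DESeq2 and voom (background 0% each in edgeR, and 1 of 12778 genes in DESeq2 with i.v. ABCB5+). These comparisons shared the Ctrl kidneys with that of CoCM. The i.v. count rested on animals 36 and 37, since 15 of 27 values were below 0 without animals 36 to 39, while for i.p. ABCB5+ 21 of 27 were. Largest in size with i.p. ABCB5+ was Itga11, a collagen receptor of fibroblasts, at -0.81 ± 0.52, followed by Itgb3 at -0.58 ± 0.41. With i.v. ABCB5+ these were Itgam, the alpha chain of the myeloid integrin Mac-1, at -0.61 ± 0.56 and Itga11 at -0.60 ± 0.52. None of these values reached 2 standard errors.

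The routes of injection were compared directly. Of the 27 members, 1 differed between i.p. and i.v. ABCB5+ at an unadjusted p-value under 0.05 (background 2.14%), and 0 of 27 separated completely (background 0.0626%). This was Itga7, a laminin receptor of muscle cells, with 28.7 to 36.9 CPM (median 33.9) after i.p. and 32.8 to 47.0 CPM (median 39.3) after i.v. injection. The groups overlapped, and the log2 fold change of i.p. against i.v. was -0.24 ± 0.11 (edgeR, adjusted p-value 0.9999), or -0.14 without animals 36 to 39, which was not called. Lamc3 was lower after i.p. than after i.v. injection by -0.42 ± 0.26 (log2), which was also not called.

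Variation between animals of a group was larger for these subunits than for the bulk of genes, with a median within-group SD of 0.614 on the log2 CPM scale against 0.300 over 12778 genes, and 0.350 against 0.233 without animals 36 to 39. The most variable members over all 24 kidneys were Itgb7, Lamb3, Itgam, Itga4, Itga11 and Itgal, with SDs of 1.06 to 1.31. Without animals 36 to 39 the largest SDs were instead those of Itgb8 (0.930), Itga1 (0.673) and Itgb3 (0.646), with 0.431 for Itgb7 and 0.428 for Itgal. Lowest and highest kidneys were 31.3-fold apart for Lamb3 and 32.7-fold for Itga4. CoCM animal 39 and i.p. animal 38 held the lowest value of their group for 19 of 27 members each, compared with 32.5% and 29.3% of all genes. The highest values were most often in CoCM animal 40, with 18 of 27 members, and in i.v. animal 43 and i.p. animal 30, with 13 and 12, compared with 21.4%, 16.04% and 19.9% of all genes.

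Lamb3, a laminin chain of epithelia, had 9.33 to 21.5 CPM in Ctrl (median 14.8), but only 1.14, 0.848, 4.08 and 3.07 CPM in animals 39, 38, 36 and 37. The other 14 kidneys of the treated groups had at least 9.01 CPM. Lama5, Lamb2 and Lamc1 were not lowered to this extent, with a lowest value over all 24 kidneys of 113, 230 and 101 CPM. Injured tubule markers were low in the same kidneys, as given above, and their part was not tested. The ratio of Lamb3 to the more abundant beta chain Lamb2 in TPM was 0.00538, 0.00372, 0.0216 and 0.0166 in animals 39, 38, 36 and 37 and at least 0.0437 in the other kidneys.

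Itgb4, which joins only with Itga6 in the laminin receptor of hemidesmosomes, had 86.4 to 120 CPM in Ctrl (median 102), and 21.8, 23.1, 20.3 and 21.5 CPM in animals 39, 38, 36 and 37, where the other treated kidneys had at least 79.2 CPM. Its partner Itga6 did not follow, with 191, 165, 226 and 220 CPM in these kidneys and 160 to 268 CPM over all 24. The ratio of Itgb4 to Itga6 in TPM was 0.0913 to 0.142 in those 4 kidneys and 0.332 to 0.665 in the other 20. Itga6 can also pair with Itgb1, and the ratio of Itgb1 to Itga6 was 3.41 to 6.86 in them and 4.49 to 8.22 elsewhere. Itga8, the nephronectin receptor of mesangial and interstitial cells, was instead high in animals 39, 38 and 36 with 50.9, 60.4 and 65.9 CPM, above the 48.9 CPM that was the highest among the other 20, and was 37.9 CPM in animal 37. Without animals 36 to 39 Itga8 was lower in CoCM than in Ctrl by -0.68 (log2, edgeR, adjusted p-value 0.221), compared with -0.47 ± 0.27 with them.

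**Figure D3:**
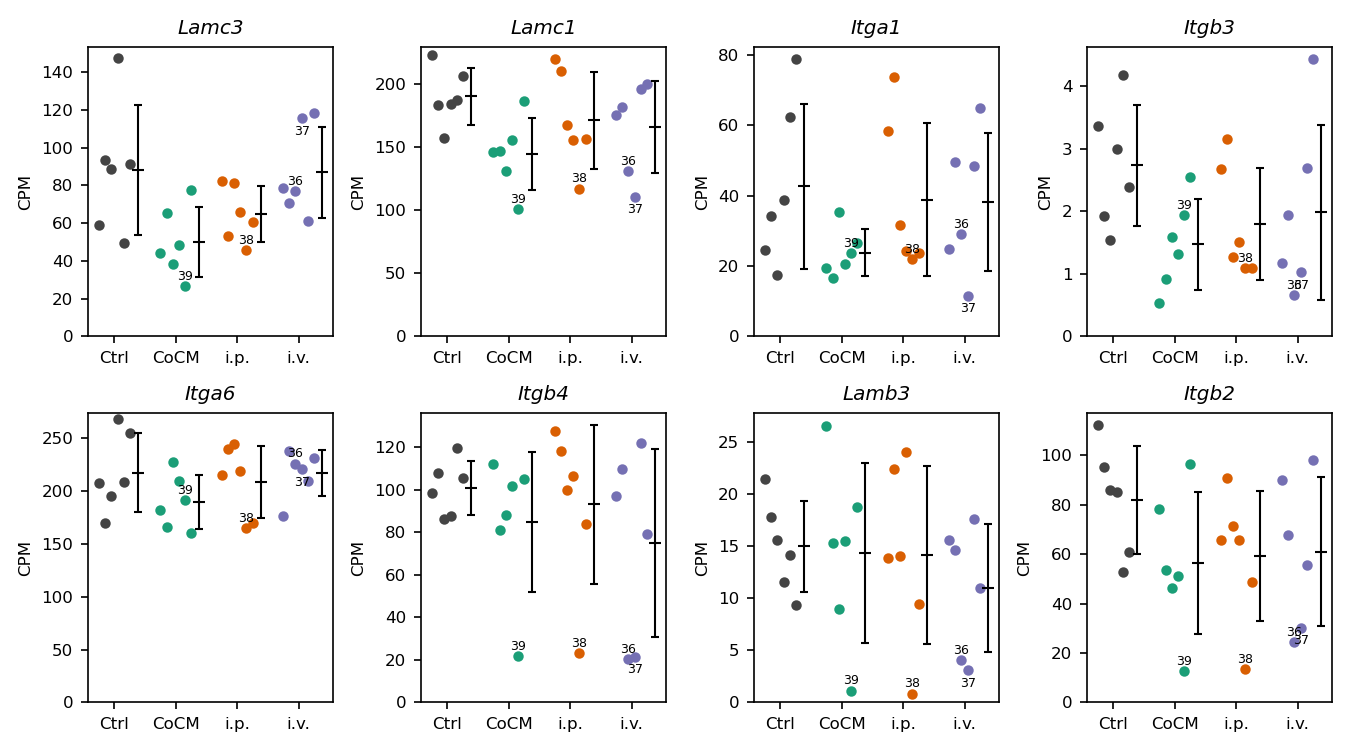
CPM of 8 subunits in each kidney, by group, with animals 36 to 39 numbered and the mean ± SD (n = 6) of each group to the right of its points. Itgb4, Lamb3 and Itgb2 are low in the 4 numbered kidneys, where Itga6 stays inside the range of the others, and Lamc3 and Lamc1 are lower in CoCM with overlap.

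Integrin subunits of leukocytes formed the second set of variable members. Itgb2, the beta chain shared by the leukocyte integrins, had 52.7 to 112 CPM in Ctrl (median 85.6) and 12.6, 13.4, 24.4 and 30.3 CPM in animals 39, 38, 36 and 37. Its log2 fold changes against Ctrl were -0.54 ± 0.41 in CoCM, -0.47 ± 0.41 with i.p. and -0.43 ± 0.41 with i.v. ABCB5+. The CoCM value was -0.34 without animals 36 to 39, and -0.33 without CoCM animal 39 alone. Itgal had 42.2 to 76.8 CPM in Ctrl and 5.23, 9.45, 13.4 and 14.7 CPM in those 4 kidneys, below every Ctrl kidney. Itgam had 12.3 to 25.9 CPM in Ctrl (median 18.8) and 1.37, 2.06, 2.47 and 1.95 CPM in them. Itgb7, the partner of Itga4 and Itgae on lymphocytes, had 17.5 to 37.5 CPM in Ctrl (median 27.2) and a median of 20.3 CPM in CoCM. Its lowest values in CoCM, i.p. and i.v. ABCB5+ were 1.25, 3.15 and 3.25 CPM, in animals 39, 38 and 37. Summed leukocyte markers had medians of 977.7 TPM in Ctrl, 723.7 in CoCM, 804.2 with i.p. and 823.3 with i.v. ABCB5+, 0 of 10 were called in any comparison with Ctrl, and their part in these members was not tested.

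Itga4, which binds fibronectin and VCAM-1, had 5.55 to 9.89 CPM in Ctrl (median 7.25) and 0.797 to 6.70 CPM in CoCM (median 3.95). It reached 19.8 CPM in i.p. animal 30 and 16.9 CPM in i.v. animal 43, above every Ctrl kidney. The log2 fold changes were -0.89 ± 0.59 in CoCM, 0.07 ± 0.58 with i.p. and -0.16 ± 0.58 with i.v. ABCB5+. Itga11 had 8.52 to 22.8 CPM in Ctrl (median 14.6), 1.02 to 16.4 CPM in CoCM (median 8.03), 1.21 to 13.4 CPM with i.p. (median 9.27) and 2.60 to 16.9 CPM with i.v. ABCB5+ (median 10.4). Its CoCM log2 fold change of -0.83 ± 0.52 was -0.61 without animals 36 to 39, where it passed the unadjusted threshold.

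**Figure D4:**
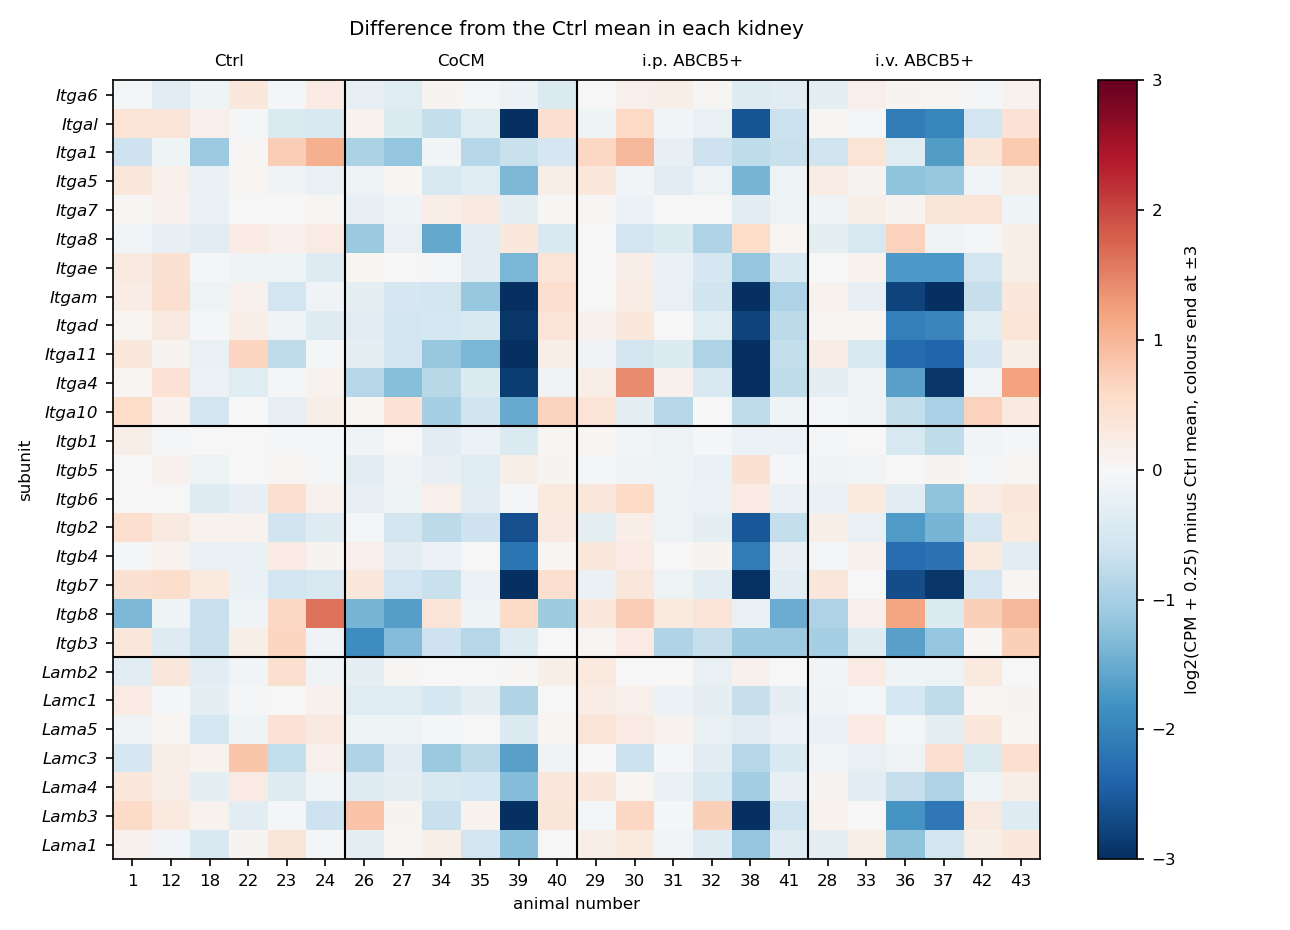
Difference of log2(CPM + 0.25) from the Ctrl mean for the 27 subunits (rows) in 24 kidneys (columns, by group and animal number), with colours ending at ±3. Animals 39, 38, 36 and 37 are dark blue for the leukocyte subunits, Itgb4 and Lamb3, and pale for Itga6, Itga7, Itgb5 and Lamb2.

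Subunits that join in a protein were compared across the 20 animals other than 36 to 39, after subtraction of the group means, since a pooled correlation over separate clusters would reflect the clusters. Those 20 still spread from -53.0 to 11.5 on the first principal component, and correlations of arbitrary gene pairs were not examined. The part of cell content in a correlation was not tested. Of 24 pairs written down, 12 could be used, and 5 had an adjusted p-value under 0.05 in a two-sided permutation test within groups (100000 permutations), for Pearson's r and Spearman's rho alike. Itgal and Itgb2, the LFA-1 subunits, had r = 0.955 and rho = 0.953 (n = 20, permutation p = 1e-05 for both, the smallest possible, adjusted 6e-05 and 0.00012). Without the 2 animals farthest from the median of Itgal, r was 0.958. Itgam and Itgb2, the Mac-1 subunits, had r = 0.858 and rho = 0.818 (permutation test, n = 20, adjusted p-values 6e-05 and 0.00024), and r = 0.858 without the 2 farthest.

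Itgb2 also followed Ptprc, the common leukocyte antigen CD45, with r = 0.825 and rho = 0.851 (permutation test, n = 20, adjusted p-values 8e-05 and 0.00018), and r = 0.831 without the 2 farthest. Lama5 varied with Lamb2 (r = 0.757, rho = 0.740, permutation test, n = 20, adjusted p-values 0.00363 and 0.00408) and with Lamc1 (r = 0.604, rho = 0.629, adjusted p-values 0.0235 and 0.0139), and r was 0.637 and 0.611 without the 2 farthest. These 5 pairs kept an adjusted p-value under 0.05 after that omission.

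Itga6 and Itgb4 did not vary together across the same animals, with r = 0.046 and rho = 0.029 (permutation test, n = 20, adjusted p-values 0.857 and 0.964). Itga4 and Itgb7 had r = 0.451 and rho = 0.432 (permutation test, n = 20, adjusted p-values 0.0574 and 0.112). Itgb1 was not related to Itga1 (r = -0.154), Itga6 (r = -0.283) or Itga8 (r = 0.288), with adjusted p-values of 0.410 to 0.633 in the permutation test (n = 20). Lamb2 and Lamc1 (r = 0.275) and Itgb6 and Spp1, the ligand osteopontin (r = -0.073), likewise failed the test.

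**Figure D5:**
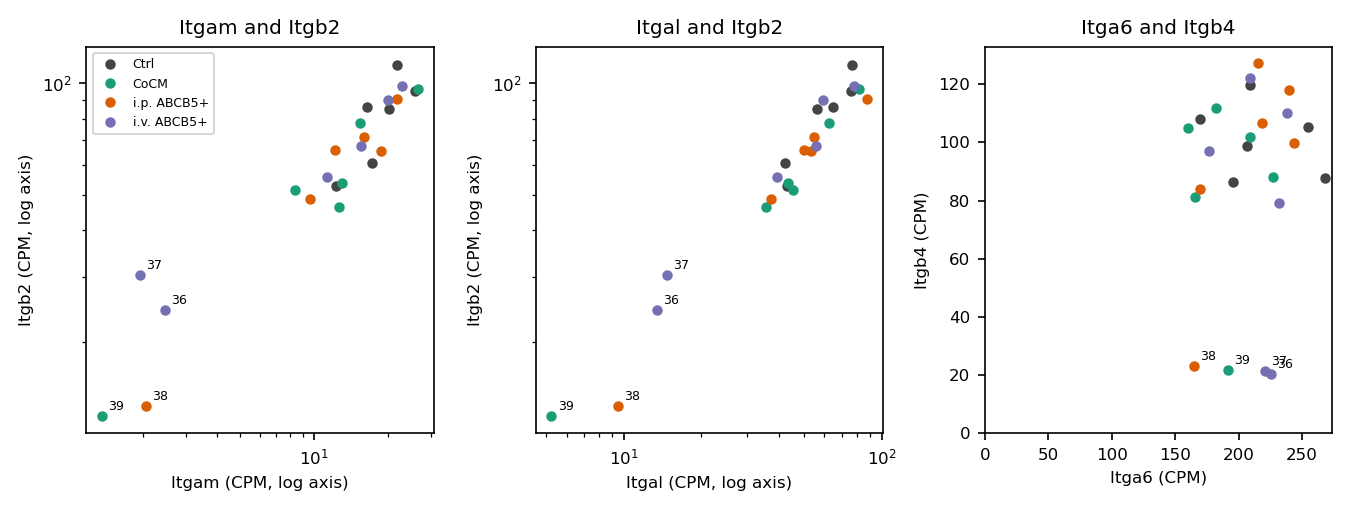
CPM of 3 subunit pairs in 24 kidneys coloured by group, with animals 36 to 39 numbered; the Itgam and Itgb2 and the Itgal and Itgb2 panels have log axes, and the Itga6 and Itgb4 panel has linear axes from 0. The first 2 pairs rise together both within the main cloud and in the 4 numbered kidneys, whereas Itgb4 alone is low in the numbered kidneys of the third.

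The genes around these subunits were read from 3 lists. Of 10 basement membrane partners tested (chains of collagen IV, Col15a1, Col18a1, Nid2, Agrn, Ntn4 and the receptors Dag1 and Bcam), all were below Ctrl in CoCM and 1 passed the unadjusted threshold, the laminin receptor Dag1, with 341 to 414 CPM in Ctrl (median 392) and 286 to 398 CPM in CoCM (median 326), a log2 fold change of -0.22 ± 0.09 (edgeR, adjusted p-value 0.383). Of 16 other integrin ligands, 1 passed, Ltbp1, which binds latent TGF-beta in the matrix, at -0.32 ± 0.15 (adjusted p-value 0.399, edgeR). Of 24 integrin adaptors, 4 passed, all lower: Parvb, a partner of integrin-linked kinase, at -0.54 ± 0.17, Tns3, a tensin, at -0.31 ± 0.12, the kinase Src at -0.36 ± 0.16, and Lims1, the PINCH adaptor, at -0.78 ± 0.33 (edgeR, adjusted p-values 0.307, 0.370, 0.396 and 0.383). Thus 6 of 50 list genes were called lower in CoCM against a background of 5.96%. In the comparisons of the cells with Ctrl 0 of 50 were called (background 1.77% with i.p. and 5.78% with i.v. ABCB5+). Without animals 36 to 39 the CoCM count was 11 of 50, all lower, compared with 9.69% of all genes lower.

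Spp1, which encodes osteopontin, was followed as the ligand of several of these integrins, with 6967 to 11041 CPM in Ctrl (median 8265), and it was 370, 426, 641 and 670 CPM in animals 39, 38, 36 and 37. In the contrast of i.p. with i.v. ABCB5+ the adaptor Itgb1bp1 differed by -0.15 ± 0.07 (log2, edgeR, adjusted p-value 0.9999). It was the only call of the 50 list genes there (background 2.14%). Against the cells Src was lower in CoCM by -0.34 ± 0.14 (log2, edgeR, adjusted p-value 0.688), again the only call of the 50 (background 7.00%). Neither count was above its background.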

How the data were processed

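Whole left kidney RNA of 24 rats was sequenced on a BGI instrument, with 6 rats per group as labelled. For each animal the authors deposited estimated counts, not normalized, and TPM values, scaled to transcript length and library total. Per the labels, Trim Galore 0.6.4, kallisto 0.4.6 and rn6 were used, although human gene models are named in the methods of the study. Symbols came from a RefSeq table (GRCr8), which matched 17179 of 17334 identifiers. Counts were rounded, filtered with filterByExpr (12778 genes), TMM-scaled and tested with edgeR 4.0.16 (R 4.3.3, quasi-likelihood F-test, 24 samples in 1 fit, Benjamini-Hochberg over all genes). The SE is the log2 fold change divided by the square root of F, and CPM is the count scaled by the TMM library size. The members and lists were chosen with earlier results of these data known.

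All members described are named; 1 further gene is not reported here. Full values are given for those with the smallest p-values (at most 5 per contrast), the 3 highest of each class in Ctrl TPM and the 6 with the largest within-group SD. Values of further members, Spp1 and marker genes were added after they were seen. Totals were 9304630 to 14125457 counts per sample. Alternatives were DESeq2 1.42.0, median-ratio size factors, no filter, at least 10 counts in every sample, only the groups compared, limma 3.58.1 on log2(TPM + 1), voom with quality weights, and omission of animals 36 to 39 or of each animal. No libraries of a group agreed within sampling noise. The fits were tested on simulated data.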

Additional observations from a re-analysis of the deposited data

Results flagged for a closer look

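Among 108 sets of 6 kidneys (27 subunits in 4 groups), 16 held a kidney far from the others by Dixon's criterion, where chance gives about 1 in 20 sets, or 5.4. CoCM animal 39 was the lowest kidney of its group for Itgad (2.28 CPM), Itgal (5.23), Itgb2 (12.6), Itgb4 (21.8), Itgb7 (1.25) and Lamb3 (1.14). I.p. animal 38 was the lowest for Itga5 (16.4 CPM), Itga11 (1.21), Itgad (2.54), Itgam (2.06), Itgb2 (13.4), Itgb4 (23.1), Itgb7 (3.15) and Lamb3 (0.848), and the highest for Itgb5 (466 CPM, others 299 to 334). In Ctrl, animal 1 was the highest for Itgb1 (871 CPM, others 734 to 759). I.v. animals 36 and 37 were both low, so that neither was far from its nearest neighbour.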

How the results depend on the processing

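No paired analysis was possible because no animal number occurs in more than 1 group. No member passed an adjusted p-value of 0.05 in any contrast or setting. At the unadjusted threshold, CoCM against Ctrl gave 4 members and 7 without animals 36 to 39 or with voom weights, i.p. against Ctrl 0, then 1 and 3, i.p. against i.v. 1, but 0 in both settings and also in limma on TPM and the fit of only the groups compared. CoCM against the cells gave 1, with 2 in DESeq2 and limma on TPM, 3 without animals 36 to 39 and 5 with voom weights, and any of 4 groups gave 1 and 5 with voom weights. With voom weights 22.2% of all genes passed in CoCM against Ctrl, 9.72% in i.p. against Ctrl, 18.6% in CoCM against the cells and 17.7% over the 4 groups, so that 5 of 27 was near the background. Without animals 36 to 39, 15 members were below 0 in i.v. against Ctrl. Of 50 list genes, 11 were then called in CoCM against Ctrl (16.9% of all genes), 6 against the cells (13.9%) and 1 in i.v. against Ctrl (1.23%). With each animal left out the counts were 2 to 5 for CoCM against Ctrl, 1 to 2 against the cells, and 0 to 1 for i.p., i.v. and i.p. against i.v.; the i.p. against i.v. call was lost without Ctrl animals 22 or 24, i.p. animals 30, 38 or 41, or i.v. animals 33, 37 or 42. Members below 0 numbered 23 (without CoCM animal 39) to 27 in CoCM, 22 to 26 with i.p. and 18 to 25 with i.v. ABCB5+.

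The CoCM log2 fold change turned above 0 without animals 36 to 39 for Itga10 (0.0087), Itga7 (0.026) and Lamb3 (0.18), and with voom weights for Itga7 (0.052), Lamb2 (0.013) and Lamb3 (0.050). With each animal left out it ranged from -0.49 to 0.011 for Itga10, -0.075 to 0.038 for Itga7, -0.28 to 0.0099 for Itgae, -0.14 to 0.037 for Itgb6, -0.10 to 0.059 for Lamb2 and -0.32 to 0.19 for Lamb3. The cause was not tested. Of the remaining single values, 236 among the settings and 731 among the omissions changed no sign. Over all genes, CoCM against Ctrl gave 1 adjusted call in edgeR, 81 in DESeq2 and 183 with voom weights. Depth limits Itga10 and Itgb3.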
